A study of Mus musculus with 4 samples.

Results

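The genes described here encode the ubiquitin-conjugating (E2) enzymes and the ubiquitin-specific proteases (USPs) of mouse pachytene spermatocytes. They were taken by name: protein-coding genes of GENCODE M21 whose symbol starts with Ube2 and a letter or with Usp and a digit, with an expected count of at least 10 in at least 2 libraries. Of 93 protein-coding genes with such a name, 83 reached the minimum, 35 named Ube2 and 48 named Usp, among 55364 genes in the table. A further 9 matching names were not protein-coding. By name only, Usp6nl, a GTPase-activating protein of the Rab family, and Ube2cbp, which binds an E2 and is not one, are among the 83.

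The 4 RNA-seq libraries came from testicular fractions enriched for pachytene spermatocytes with an elutriation centrifuge, and DAPI staining served to judge purity. WT (n = 2) had the genotype label WT, and KK (n = 2) was homozygous for a knock-in at Ddx4, the gene of a germ cell RNA helicase found in germ granules. Sources used here do not give the strain, the age, the inserted sequence or whether replicate libraries are separate mice, so p-values measure only the spread between these libraries, which may be technical. Libraries held 17970207 to 19438570 expected counts. Ddx4 itself was at 548 and 565 CPM (counts scaled to library size) in WT and at 112 and 108 CPM in KK.

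Ubiquitin is activated by an E1 enzyme, passed to the active-site cysteine of an E2 and transferred to a protein, usually with the help of an E3 ligase. USPs are cysteine proteases that remove ubiquitin again. In male meiosis ubiquitin marks histones, above all H2A on the X and Y chromosomes, which pachytene spermatocytes gather into the sex body and silence. Ube2a and Ube2b are the mammalian forms of yeast Rad6, an E2 of DNA damage tolerance and histone H2B ubiquitination, and male mice without Ube2b are sterile.

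The promoters of the Rad6 pair and of Ube2c are shown because the Rad6 forms were called in opposite directions in KK and Ube2c rose more than any other autosomal member. Each window runs from 250 bases before to 50 bases after a RefSeq transcript start on GRCm38.p6. Windows were found for 65 of the 83 members, 77 windows in all. Capitals mark a CCAAT box (CCAAT), a cell cycle homology region (CHR, TTTGAA) or a cAMP response element (CRE, TGACGTCA), searched on both strands.
Ube2a, chrX:36874045-36874344, plus strand: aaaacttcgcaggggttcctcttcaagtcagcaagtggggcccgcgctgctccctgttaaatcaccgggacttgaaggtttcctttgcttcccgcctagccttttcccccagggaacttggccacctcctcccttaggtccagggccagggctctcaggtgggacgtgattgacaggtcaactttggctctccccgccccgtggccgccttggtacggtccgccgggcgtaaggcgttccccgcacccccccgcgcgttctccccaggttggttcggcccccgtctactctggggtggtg
Ube2b, first of 2 windows, chr11:52000737-52001036, minus strand: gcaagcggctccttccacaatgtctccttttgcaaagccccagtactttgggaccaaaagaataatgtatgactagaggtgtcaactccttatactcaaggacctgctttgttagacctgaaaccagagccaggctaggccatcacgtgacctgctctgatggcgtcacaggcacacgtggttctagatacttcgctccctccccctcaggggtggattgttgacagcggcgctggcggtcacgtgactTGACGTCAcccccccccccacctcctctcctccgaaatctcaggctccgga
Ube2c, chr2:164769679-164769978, plus strand: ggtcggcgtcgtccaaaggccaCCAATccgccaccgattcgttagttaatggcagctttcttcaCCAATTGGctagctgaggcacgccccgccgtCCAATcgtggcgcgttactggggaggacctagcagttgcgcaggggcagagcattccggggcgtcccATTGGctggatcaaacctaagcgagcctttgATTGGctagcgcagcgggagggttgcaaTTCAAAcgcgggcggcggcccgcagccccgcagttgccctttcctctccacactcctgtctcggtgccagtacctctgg

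The Ube2c window held 6 CCAAT matches, 2 of them overlapping on opposite strands, and 1 CHR at bases 222 to 227. The first Ube2b window held 1 CRE at bases 250 to 257, across the transcript start, and the Ube2a window held none of the 3 motifs. Ube2a's window was 64.0% G and C, Ube2b's first window 55.7% and Ube2c's window 62.0%. Ube2b's other window, not shown, was 71.0% G and C and held none of the 3 motifs. Among 32851 windows of all genes, 37.4% held a CCAAT box, 17.9% the CHR and 1.79% the CRE. Of the members' 77 windows, 23.4% held a CCAAT box, 9.09% the CHR and 3.9% the CRE. Counted by gene, 18 of the 65 members with a window had a CCAAT box in any window, 7 the CHR and 3 the CRE. Matching letters do not show that a factor binds there.

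In KK, 17 of the 83 genes were higher and 27 lower at an adjusted p under 0.05 (edgeR's quasi-likelihood test over 16571 genes), and 39 did not pass. Among all genes tested 22.0% were called higher and 21.7% lower, against 20.5% and 32.5% of the 83. The 35 Ube2 genes gave 5 higher and 11 lower, at a median log2 value of -0.08, and the 48 Usp genes 12 higher and 16 lower, at a median of -0.09. The median over all genes was 0.00. With library totals alone as the scale, the share of higher calls among all calls went from 50.4% to 64.2%, the members gave 18 higher and 17 lower, and the medians became 0.01 for Ube2 and -0.01 for Usp. In bulk RNA, fewer cells of a type and less RNA per cell cannot be told apart.

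Among the members, as among all genes, large changes were mostly rises. At a change of at least 1.5-fold, 10 members were higher and none was lower, where 14.5% of all genes passed both limits upward and 3.57% downward. Of the 10, 6 were among the 8 X- or Y-linked members and 4 among the 75 autosomal ones. Beside them, 374 of 670 X- and Y-linked genes and 2022 of 15901 autosomal genes passed both limits upward. The 27 lower members fell by 0.10 to 0.57 on the log2 scale. In all 44 called members the CPM of WT and KK did not overlap. The calls rest on the same counts, so this gives them no separate support. Some uncalled members, such as Ube2s and Usp7, did not overlap either, and the share without overlap over all genes was not computed.

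Chromosome and abundance moved with the counts. Of 8 X- or Y-linked members 6 were higher and none lower, beside 59.0% of the 670 X- and Y-linked genes called higher; the median log2 fold change was 1.00 for the members and 0.96 for those 670. The 75 autosomal members gave 11 higher and 27 lower, beside 20.5% of autosomal genes higher and 22.5% lower. The members were abundant, with a median of 51.4 CPM against 10.4 CPM over all genes tested. Among autosomal genes with a mean of at least 10 CPM, 20.1% were called higher and 37.2% lower, and the 67 members above that level gave 10 higher and 27 lower, 14.9% and 40.3%. The share of members called lower was thus near that of autosomal genes above the same level.

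Calls depended on the test. With DESeq2, 13 members were higher and 20 lower, beside 14.5% and 15.5% of all genes. With effective gene lengths as an offset, 16 were higher and 15 lower, beside 15.1% and 12.5%, and the median of the Usp genes turned to 0.01. Of the 44 calls, 20 held with their direction in all 14 alternatives, 11 higher and 9 lower.

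**Figure D1:**
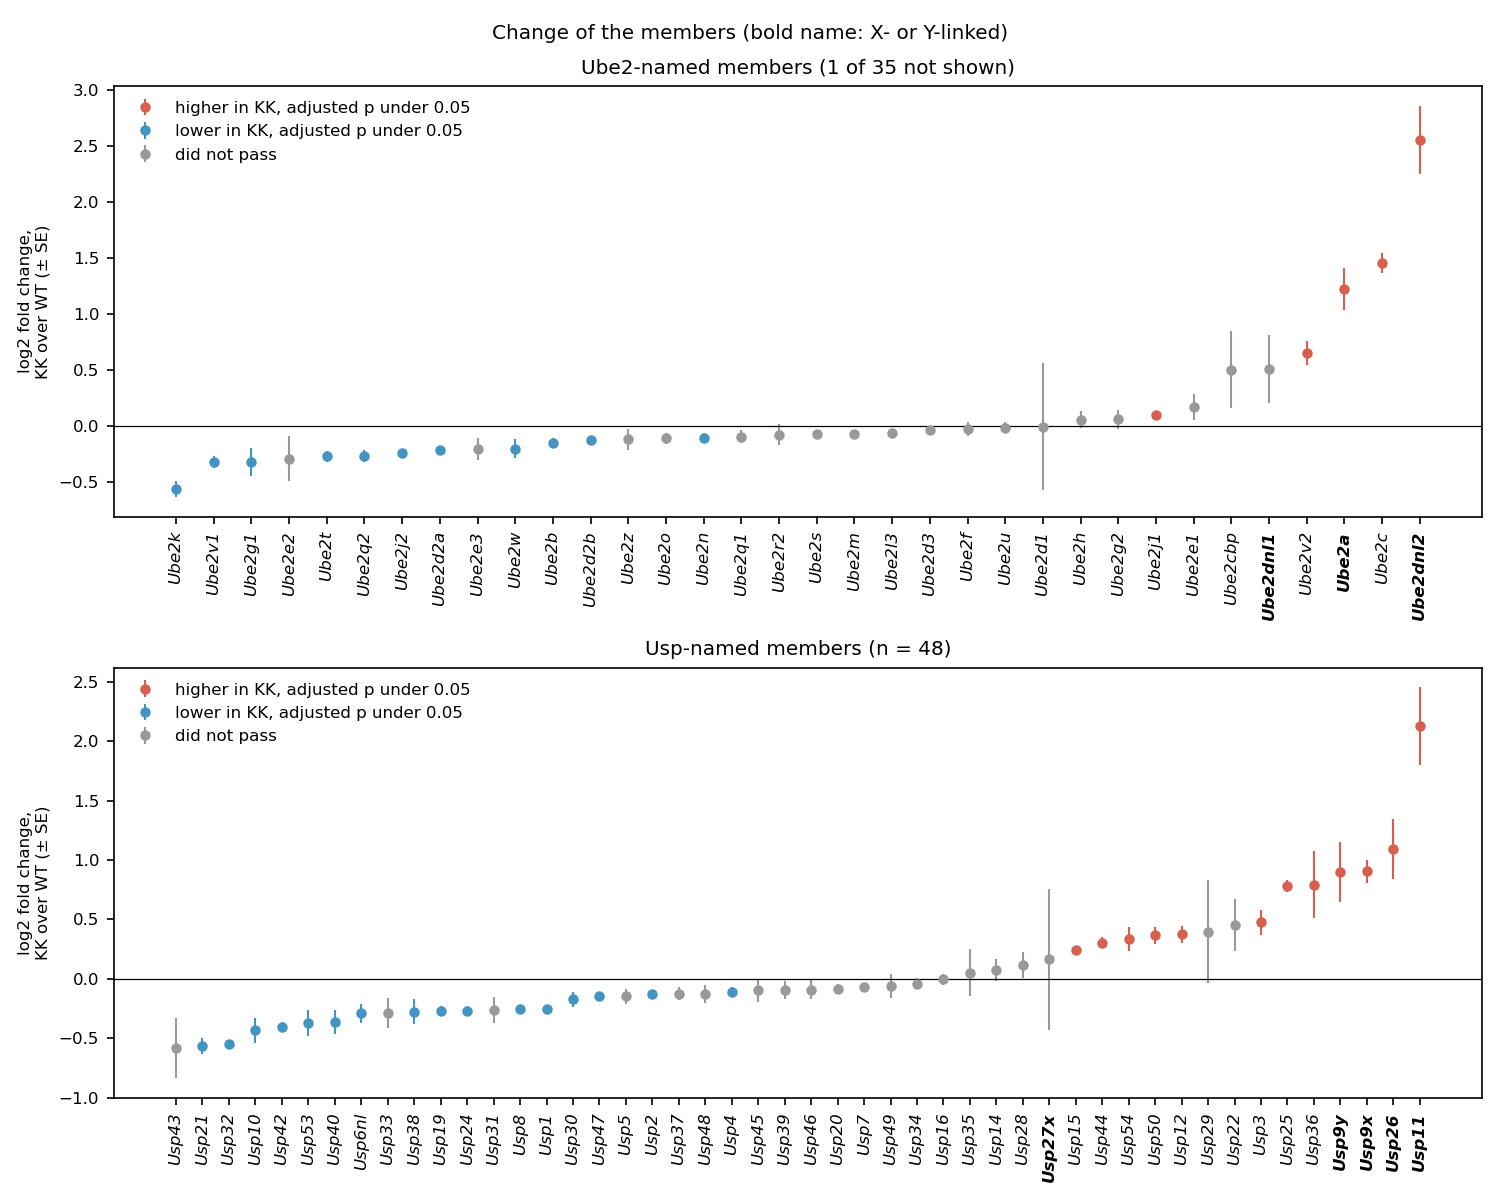
Log2 fold change, KK over WT, with its standard error for the 35 Ube2-named genes but 1 (top) and 48 Usp-named genes (bottom), ordered by size, with colour for the edgeR call and bold names for X- or Y-linked genes. The right-hand end of each panel, from 0.65 upward in the Ube2 panel, holds the larger rises, and no gene called lower lies below -0.57.

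Markers of other cell types moved with genotype. Summed CPM of 7 Leydig cell genes was 212 and 226 in WT and 676 and 686 in KK, and 6 of the 7 were called higher. Summed CPM of 9 spermatogonial genes was 27.6 and 28.8 in WT and 51.3 and 56.4 in KK, with 6 of 8 tested called higher. Both lists were low beside the 10 pachytene genes, which summed to 10560 in each WT library and to 9669 and 9491 in KK, with 6 called lower. Spermatid genes summed to 4099 and 4110 in WT and to 3674 and 3544 in KK, with 5 of 9 higher and 3 lower. Sertoli cell genes summed to 116 in both WT libraries and to 106 and 112 in KK, with 3 of 7 tested lower. Peritubular and endothelial genes summed to 5.40 to 10.4 CPM and macrophage genes to 1.02 to 2.44 CPM, with 2 of 4 and 1 of 2 tested called higher. No marker was at 0 in all libraries. The part of these cells in the values below was not tested.

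The Rad6 pair was called in opposite directions, though Ube2b's call depended on the scaling, both of length and of library. Ube2a, on the X chromosome (chrX:36873900-36884222, plus strand, GRCm38), was at 3.41 and 3.48 CPM in WT and at 8.51 and 7.56 CPM in KK. It rose 2.33-fold (log2 1.22 ± 0.18 SE, adjusted p = 3.36e-06) in both KK libraries, with its call kept in 14 of 14 alternatives. Ube2b, on chromosome 11 (chr11:51985497-52000762, minus strand), was at 134 and 132 CPM in WT and at 121 and 117 CPM in KK. It fell by 0.16 ± 0.04 on the log2 scale (adjusted p = 4.35e-03), but with effective lengths as an offset the value was 0.03 and did not pass. Ube2b's call was also lost with library totals alone as the scale and with both limma fits, and was kept in 10 of 14 alternatives. Per length Ube2b stayed the more abundant, with a mean of 167 TPM (transcript level scaled by length and library) against 9.10 TPM for Ube2a. Their coding sequences are 77.6% identical, with no identical run over 17 bases.

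Both E2s of the anaphase-promoting complex (APC/C), the ligase that ends metaphase, were measured. Ube2c, which starts ubiquitin chains on APC/C substrates, was at 18.9 and 20.6 CPM in WT and at 52.0 and 56.2 CPM in KK. Every KK library lay above every WT library, and the rise was 2.73-fold (log2 1.45 ± 0.09, adjusted p = 1.66e-13), kept in 14 of 14 alternatives. Exons of Ube2c share 22.8% of their bases with Tnnc2 on the opposite strand, and the kit does not mark strand, but Tnnc2 had a mean of 2.50 counts. Ube2s, which lengthens those chains, was the most abundant member per length, with a mean of 978 TPM. It was at 700 and 734 CPM in WT and at 691 and 670 CPM in KK, a log2 fold change of -0.08 ± 0.04 that did not pass (adjusted p = 0.0855).

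Among all genes 22.0% were higher and 21.7% lower, and among autosomal genes with at least 10 CPM 20.1% and 37.2%. Of 18 APC/C subunits and regulators none was higher and 5 were lower. The fallers were Fbxo43, the meiotic APC/C inhibitor also called Emi2, at 78.6 and 75.1 CPM in WT and 56.1 and 58.6 in KK, the co-activator Cdc20, at 274 and 279 CPM in WT and 232 and 225 in KK, and the subunits Anapc1, Anapc4 and Cdc27. The spermatogonial and Leydig cell marker sums were also higher in KK. The part of these or other cells in Ube2c's rise was not tested.

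The K63 group makes ubiquitin chains linked through lysine 63, which serve in signalling and DNA repair rather than degradation. Ube2n, the catalytic E2 (also Ubc13), was at 174 CPM in both WT libraries and at 163 and 161 CPM in KK. Its call of -0.10 ± 0.04 (adjusted p = 0.0318) was kept in 4 of 14 alternatives and was lost on leaving out KK replicate 2 or either WT library. Ube2v1 and Ube2v2, catalytically inactive partners of Ube2n, parted. Ube2v1 was at 99.2 and 99.4 CPM in WT and at 77.2 and 81.6 in KK and fell by 0.32 ± 0.05 (adjusted p = 6.46e-06). That call was kept in 11 of 14 alternatives and lost with the effective length offset and both limma fits. Ube2v2 was at 13.7 and 14.5 CPM in WT and at 23.4 and 20.7 in KK and rose 1.57-fold (log2 0.65 ± 0.11, adjusted p = 9.39e-06), in 14 of 14 alternatives. Of Ube2v1's exonic bases 69.1% belong to another gene as well, mostly to Gm20431 on the same strand with a mean of 384 counts, so its count is uncertain.

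Ube2dnl1 and Ube2dnl2, X-linked relatives of the UbcH5 E2s, were low. Ube2dnl2 was at 0.625 and 1.02 CPM in WT and at 4.98 and 4.79 CPM in KK, a 5.88-fold rise (log2 2.56 ± 0.31, adjusted p = 7.21e-08) and the largest of the 83. Ube2dnl1 was at 1.70 and 1.87 CPM in WT and at 2.64 and 2.45 in KK, log2 0.51 ± 0.31, which did not pass. The 2 coding sequences are 94.6% identical with an identical run of 122 bases, so reads can be split between them and each gene's own value is uncertain.

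Of the other UbcH5 E2s, which work with many E3 ligases, Ube2d3, Ube2d2b and Ube2d2a were abundant and Ube2d1 was near the count minimum. Ube2d3 had a mean of 496 TPM and stood at 303 and 298 CPM in WT and 297 and 288 in KK (log2 -0.04 ± 0.04, not passed). The autosomal copy Ube2d2b, with 421 TPM, was at 475 and 463 CPM in WT and at 436 and 423 in KK and fell by 0.13 ± 0.04 (adjusted p = 4.76e-03). Its relative Ube2d2a fell by 0.22 ± 0.04 (adjusted p = 4.08e-05), and the pair is 92.7% identical in coding sequence with runs of at most 32 bases. The calls of Ube2d2b and Ube2d2a were kept in 11 and 12 of 14 alternatives and lost with both limma fits. Ube2d2b's was also lost with library totals as the scale. Ube2d1 had 6 and 14 counts in WT and 12 and 9 in KK, just inside the count minimum. Ube2e1, Ube2e2 and Ube2e3 did not pass, with log2 values of 0.17, -0.29 and -0.21.

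The E2s of NEDD8, a modifier that activates cullin ligases, did not pass, while the E1 subunits before them were lower. Ube2m was at 237 and 238 CPM in WT and at 227 and 225 in KK, log2 -0.07 ± 0.04. Per length it was at 430 and 421 TPM in WT and at 399 and 398 in KK. The retained-intron transcript Ube2m-205 held 71.01% and 66.89% of that TPM in WT and 66.4% and 66.95% in KK. Ube2f was at 62.7 and 66.5 CPM in WT and at 63.8 and 62.6 in KK, log2 -0.03 ± 0.06, with overlap. The NEDD8 E1 subunits Uba3 and Nae1 fell by 0.48 ± 0.11 and 0.29 ± 0.06. The SUMO E1 subunits Sae1 and Uba2 fell by 0.43 ± 0.04 (adjusted p = 2.93e-09) and 0.31 ± 0.04 (adjusted p = 3.00e-07). Sumo2 and Sumo3 were lower, by 0.50 and 0.33. The difference between the NEDD8 E1 and E2 genes was not tested.

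**Figure D2:**
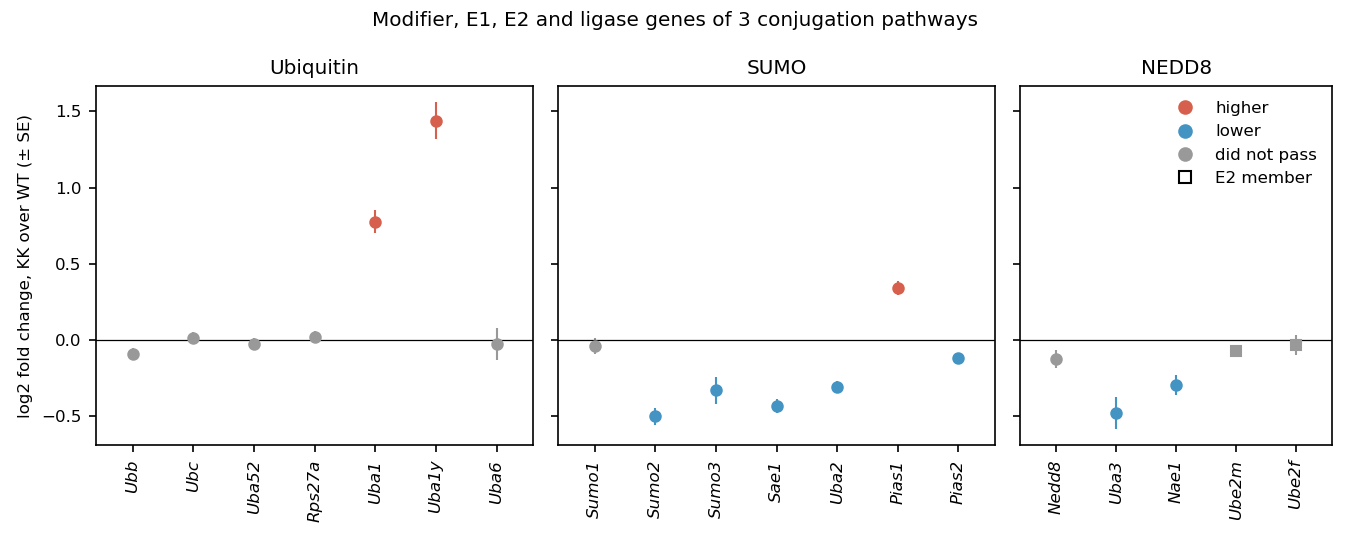
Log2 fold change, KK over WT, with its standard error for modifier, E1, E2 and, for SUMO, PIAS ligase genes of the ubiquitin, SUMO and NEDD8 pathways, with squares for the E2 members and colour for the edgeR call. Uba1 and Uba1y stand above 0 at 0.78 and 1.44, the SUMO and NEDD8 E1 subunits lie below 0 and the E2s Ube2m and Ube2f lie near it.

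Of the 11 remaining ubiquitin E2s none was higher and 4 were lower, beside 20.1% and 37.2% of autosomal genes with at least 10 CPM. Ube2k, which builds chains linked through lysine 48, was at 65.1 and 71.3 CPM in WT and at 45.5 and 46.8 in KK and fell by 0.57 ± 0.07 (adjusted p = 1.56e-07). Ube2t, the E2 of the Fanconi anaemia pathway of crosslink repair, was at 104 and 108 CPM in WT and 90.9 and 85.0 in KK and fell by 0.27 ± 0.05. Ube2q2 and Ube2w fell by 0.27 and 0.20. These calls of Ube2k, Ube2t and Ube2q2 held in 14 of 14 alternatives, and that of Ube2w in 3, being lost without KK replicate 1, KK replicate 2 or WT replicate 1. Ube2l3, at 413 TPM, was at 417 and 431 TPM in WT and at 428 and 377 in KK, with overlap. Ube2h, Ube2o, Ube2q1, Ube2r2, Ube2u and Ube2z did not pass either, with log2 values from -0.12 to 0.05. With effective lengths as an offset Ube2h was called higher, at 0.42 (adjusted p = 0.00893), and it passed in 3 of 14 alternatives. Ube2cbp was at 2.16 and 1.28 CPM in WT and at 3.04 and 1.80 in KK, with overlap.

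Of the 4 E2s of protein disposal from the endoplasmic reticulum, 1 was higher and 2 were lower. Over autosomal genes with at least 10 CPM the shares were 20.1% and 37.2%. Ube2j2 was at 158 and 156 CPM in WT and at 133 and 132 in KK and fell by 0.24 ± 0.04 (adjusted p = 1.80e-05). Ube2j1, its relative in the same membrane, was at 232 and 234 CPM in WT and at 250 and 249 in KK (log2 0.10 ± 0.04, adjusted p = 0.0334), and its call was kept in 8 of 14 alternatives and lost on leaving out any of the 4 libraries. Ube2g1 fell by 0.32 ± 0.13 (adjusted p = 0.0403), a call kept in 5 of 14 alternatives and lost without either KK library or WT replicate 2, and Ube2g2 gave 0.06 ± 0.08.

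**Figure D3:**
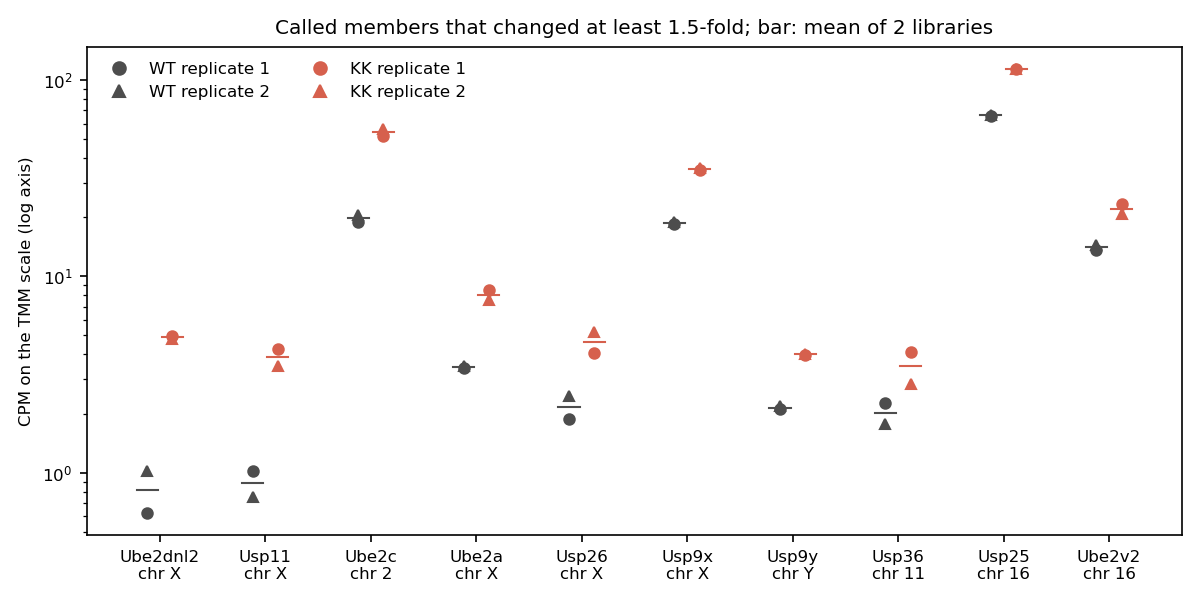
CPM on a log axis for each library of the 10 called members that changed at least 1.5-fold, with circles and triangles for replicates 1 and 2 and a bar for the mean of 2 libraries. In all 10 genes both KK points lie above both WT points, and 6 of the 10 are on the X or Y chromosome.

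Of the 5 USPs on the sex chromosomes 4 rose and 1 did not pass, beside 59.0% of X- and Y-linked genes called higher. Usp9x, a protease of membrane trafficking and cell adhesion encoded on the X, was at 18.6 and 18.9 CPM in WT and at 34.8 and 35.4 in KK, a 1.87-fold rise (log2 0.90 ± 0.09, adjusted p = 6.59e-09). Its Y-linked counterpart Usp9y was at 2.10 and 2.19 CPM in WT and at 3.98 and 4.03 in KK, 1.86-fold (log2 0.90 ± 0.25, adjusted p = 4.95e-03). The calls were kept in 14 and 11 of 14 alternatives, DESeq2 giving an adjusted p of 0.0508 for Usp9y. The coding sequences are 83.6% identical with no run over 39 bases.

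Usp11, an X-linked protease linked to DNA repair, was at 1.02 and 0.749 CPM in WT and at 4.28 and 3.48 in KK, a 4.38-fold rise (log2 2.13 ± 0.33, adjusted p = 4.19e-06). Usp26, an X-linked gene known for its expression in testis, was at 1.87 and 2.46 CPM in WT and at 4.08 and 5.22 in KK, 2.13-fold (log2 1.09 ± 0.25, adjusted p = 7.58e-04). Both were low genes with no overlap between genotypes. The call of Usp11 was kept in 14 of 14 alternatives and that of Usp26 in 12, being lost with both limma fits. The X-linked Usp27x, a histone H2B protease, had 10 and 6 counts in WT and 8 and 11 in KK, and no difference was detectable at this depth. The X-linked ubiquitin E1 Uba1 rose by 0.78 ± 0.08 and its Y-linked relative Uba1y by 1.44 ± 0.12 on the log2 scale. Every X- or Y-linked E1, E2 and USP gene that passed did so upward. This direction was shared by X- and Y-linked genes in general, of which 395 of 670 were called higher and 6 lower.

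USPs that act on histones H2A and H2B gave 3 higher, 2 lower and 4 not passed, beside 22.0% higher and 21.7% lower over all genes. Usp3, an H2A and H2B protease, was at 14.7 and 13.8 CPM in WT and at 20.5 and 19.0 in KK and rose 1.39-fold (log2 0.48 ± 0.10, adjusted p = 4.62e-04). Usp44, an H2B protease that also restrains APC/C, was at 105 and 111 CPM in WT and at 131 and 137 in KK and rose 1.23-fold (log2 0.30 ± 0.05, adjusted p = 3.92e-06). Usp36, a nucleolar protease, was at 2.27 and 1.77 CPM in WT and at 4.13 and 2.83 in KK, 1.73-fold (log2 0.79 ± 0.28, adjusted p = 0.0245). The calls of Usp3 and Usp44 were kept in 14 of 14 alternatives, while that of Usp36 was lost in 6, among them DESeq2 and the fits without KK replicate 1 or WT replicate 2.

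In the same group Usp21, an H2A protease, was at 69.4 and 72.6 CPM in WT and at 46.1 and 49.7 in KK and fell by 0.57 ± 0.07 (adjusted p = 7.64e-08). Usp42, which acts on H2B and p53, was at 196 and 189 CPM in WT and at 145 and 146 in KK and fell by 0.41 ± 0.04 (adjusted p = 2.22e-09). These 2 calls were kept in 14 of 14 alternatives. Usp16, an H2A protease of the cell cycle, was at 131 and 129 CPM in WT and 131 and 127 in KK, with overlap. Usp49 was at 22.9 and 19.6 CPM in WT and 19.8 and 20.9 in KK, and 52.3% of its exonic bases are shared with another gene. Usp22, the H2B protease of the SAGA complex, was at 3.58 and 3.27 CPM in WT and 4.58 and 4.79 in KK, log2 0.45 ± 0.22, not passed. It passed in 3 of 14 alternatives, among them the effective length offset, at 1.05 (adjusted p = 0.0167).

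Of 8 genes whose products bind or activate USPs, none was higher and 5 were lower, beside 21.7% of all genes lower and 37.2% of autosomal genes with at least 10 CPM. Atxn7 and Eny2, of the module that holds Usp22, fell by 0.42 ± 0.10 and 0.38 ± 0.15. G3bp1 and G3bp2, stress granule proteins that bind Usp10, fell by 0.56 ± 0.06 and 0.35 ± 0.05. Wdr20, which activates Usp12 and Usp46, fell by 0.23 ± 0.09 (adjusted p = 0.0354).

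Usp1, Usp12 and Usp46, which share the activator UAF1 (the product of Wdr48), gave 3 different outcomes. Usp1, which deubiquitinates PCNA and FANCD2, was at 958 and 952 CPM in WT and at 792 and 808 in KK and fell by 0.26 ± 0.03 (adjusted p = 5.23e-07). Per length it was at 403 and 378 TPM in WT and at 344 and 320 in KK. Usp12 was at 51.6 and 47.7 CPM in WT and at 64.7 and 63.9 in KK and rose 1.30-fold (log2 0.37 ± 0.07, adjusted p = 6.64e-05). The call of Usp12 was kept in 11 of 14 alternatives and lost with the effective length offset and both limma fits. Usp46, a close relative of Usp12 at 77.9% coding identity, was at 51.8 and 47.3 CPM in WT and at 44.6 and 48.3 in KK, with overlap.

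**Figure D4:**
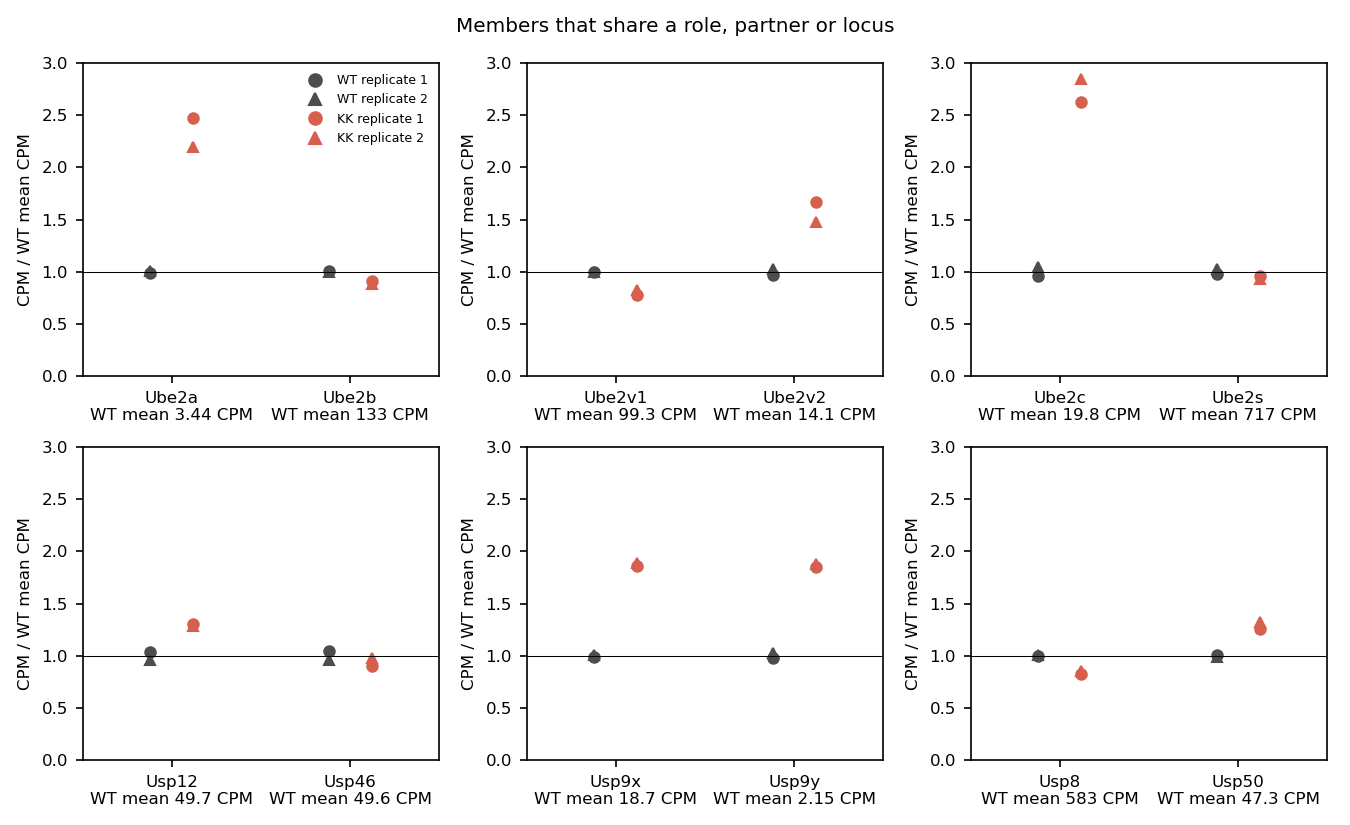
CPM of each library divided by the gene's WT mean for 6 pairs of members that share a role, a partner or a locus, with circles and triangles for replicates 1 and 2. Ube2a, Ube2c, Ube2v2, Usp12 and Usp50 lie above 1 in both KK libraries while the other gene of each pair does not, and Usp9x and Usp9y lie above 1 together.

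The proteases of free chains and of the proteasome did not pass. Usp5, which cuts unanchored ubiquitin chains, was at 75.1 and 66.5 CPM in WT and at 62.2 and 65.6 in KK, log2 -0.15 ± 0.07 (adjusted p = 0.0688). Usp14, which sits on the proteasome, was at 26.4 and 28.4 CPM in WT and at 29.0 and 28.7 in KK, and 26.0% of its exonic bases are shared with Thoc1 on the opposite strand.

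Of 11 USPs linked to DNA damage and p53, 2 were higher and 4 were lower. The shares were 22.0% and 21.7% over all genes, and 20.1% and 37.2% over autosomal genes with at least 10 CPM. Usp15, the most abundant of them per length, was at 279 and 282 CPM in WT and at 334 and 331 in KK and rose 1.18-fold (log2 0.24 ± 0.04, adjusted p = 2.58e-06), in 14 of 14 alternatives. In WT the retained-intron transcripts Usp15-208, Usp15-206 and Usp15-209 held means of 50.9%, 24.5% and 20.3% of its TPM. In KK they held 52.0%, 25.5% and 19.4%. Usp15's level and rise are thus mostly not those of coding transcripts. Its close relative Usp4 was at 261 and 246 CPM in WT and at 230 and 238 in KK and fell by 0.11 ± 0.04 (adjusted p = 0.0219), a call kept in 8 of 14 alternatives and lost without KK replicate 1 or WT replicate 1. Usp10 was at 23.5 and 22.4 CPM in WT and 15.6 and 18.3 in KK and fell by 0.43 ± 0.10 (adjusted p = 1.14e-03). Usp24 and Usp47 fell by 0.27 and 0.15, the latter at 123 and 125 TPM in WT and 117 and 108 TPM in KK. The call of Usp47 was kept in 10 of 14 alternatives, and those of Usp10 and Usp24 in 12. Usp47's was lost with the effective length offset, with library totals as the scale and with both limma fits. Usp11 was the other gene called higher. Usp7, the protease that stabilises Mdm2 and p53, was at 212 and 213 CPM in WT and 203 and 201 in KK and did not pass, nor did Usp28, Usp29, Usp45 and Usp48.

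Of 9 genes of the membrane and trafficking group, 5 were lower, and the 2 higher ones were Usp9x and Usp9y. Among autosomal genes with at least 10 CPM 37.2% were lower, and among X- and Y-linked genes 59.0% were higher. Usp32 was at 339 and 354 CPM in WT and at 235 and 238 in KK and fell by 0.55 ± 0.04 (adjusted p = 1.26e-12). Usp8, which sorts receptors at endosomes and is linked to acrosome formation, was at 579 and 587 CPM in WT and at 480 and 497 in KK and fell by 0.26 ± 0.04 (adjusted p = 7.53e-07). Its value was 195 and 198 TPM in WT and 161 and 167 TPM in KK. Usp50, whose locus on chromosome 2 overlaps that of Usp8 on the opposite strand, was at 47.6 and 46.9 CPM in WT and 59.3 and 62.7 in KK and rose 1.29-fold (log2 0.37 ± 0.07, adjusted p = 1.16e-04). Usp8's exons share no bases with another gene's, and the calls of Usp32, Usp8 and Usp50 were kept in 14 of 14 alternatives. Usp19 and Usp6nl fell by 0.27 and 0.29. Their calls were kept in 12 and 11 of 14 alternatives and lost with both limma fits, and Usp6nl's also with the effective length offset. Usp30, the mitochondrial protease, fell by 0.17 ± 0.06, but gave 0.24 with effective lengths as an offset and lost its call without KK replicate 1 or WT replicate 1. Usp20 and Usp33 did not pass.

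Usp25 had the smallest adjusted p of the autosomal USPs called higher. It was at 65.5 and 66.6 CPM in WT and at 113 CPM in both KK libraries, 1.72-fold (log2 0.78 ± 0.05, adjusted p = 4.71e-13), kept in 14 of 14 alternatives. Usp2, with the highest level per length among the USPs, was at 404 and 384 TPM in WT and at 359 and 373 in KK and fell by 0.13 ± 0.04 (adjusted p = 7.58e-03), a call kept in 8 of 14 alternatives and lost without KK replicate 1 or WT replicate 1. Usp38 and Usp40 fell by 0.28 and 0.36. The call of Usp38 was kept in 6 of 14 alternatives and lost without KK replicate 1 or either WT library, and that of Usp40 was kept in 10 and lost without KK replicate 2. Usp31, Usp34, Usp35, Usp37 and Usp43 did not pass, with log2 values from -0.58 to 0.05.

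Of the 3 USPs long listed as inactive, Usp54 rose by 0.33 ± 0.10 (adjusted p = 7.19e-03), Usp53 fell by 0.37 ± 0.11 (adjusted p = 6.89e-03) and the splicing factor Usp39 did not pass. Each of these calls was kept in 9 of 14 alternatives and lost with DESeq2, the effective length offset and both limma fits. That of Usp54 was also lost without WT replicate 2 and that of Usp53 without WT replicate 1. Usp53 was at 20.8 and 17.1 CPM in WT and at 14.0 and 15.2 in KK, yet its log2 value was 0.77 with effective lengths as an offset. In KK replicate 2 the retained-intron transcript Usp53-204 was given 77.2% of the gene's TPM from 3.51 counts.

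The 10 genes below the count minimum were Ube2l6, Ube2ql1, Usp13, Usp18, Usp51 and 5 copies of Usp17l. Closest to it were Usp51, with 7 and 3 counts in WT and 14 and 8 in KK, and Ube2l6, with 3 and 0 in WT and 3 and 12 in KK. Just inside were Usp27x and Ube2d1.

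Other genes of the pathway gave calls in both directions, to be read beside 22.0% higher and 21.7% lower over all genes, and 20.1% and 37.2% over autosomal genes with at least 10 CPM. Of 12 tested genes for ubiquitin and ubiquitin-like proteins 1 was higher and 3 were lower, and of 10 tested E1 genes 3 were higher and 4 lower. Of 8 tested E2s outside the Ube2 names 2 were higher and 1 was lower, the lower one being Birc6 at -0.49 ± 0.10. Of 35 tested deubiquitinases outside the USP names 11 were higher and 13 lower. Otud6a, X-linked and low, was at 0.341 and 0.856 CPM in WT and 3.73 and 3.21 in KK. With a mean of at least 5 CPM, the largest rise was that of Stambpl1, a K63-specific protease, at 11.8 and 11.3 CPM in WT and 36.0 and 44.1 in KK, and Otud7b fell by 0.55 ± 0.04. Uchl1, also a spermatogonial marker on the list above, rose by 0.78 ± 0.11, but its log2 value was -0.24 with effective lengths as an offset, where the call was lost, and its TPM overlapped, at 17.9 and 66.2 in WT and 32.0 and 33.0 in KK. Of 49 E3 genes of meiosis and sperm formation 9 were higher and 21 lower, a median of -0.14.

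Among those E3 genes were partners of the Rad6 pair. Rad18, which works with Rad6 at stalled replication forks, was at 89.7 and 90.2 CPM in WT and at 66.5 and 61.2 in KK and fell by 0.49 ± 0.06 (adjusted p = 4.14e-08). Rnf40, of the H2B ligase, fell by 0.27 ± 0.04. Cul4a fell by 0.53 ± 0.04 while its X-linked relative Cul4b rose by 0.70 ± 0.09 on the log2 scale. Rnf151, a ring finger gene of sperm formation, was at 84.6 and 88.6 CPM in WT and 162 and 155 in KK.

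Isoform use was described without a test, since 2 libraries against 2 cannot go below p = 0.333 in an exact permutation test. Of 72 members with at least 50 counts in every library, 70 had more than 1 isoform, and 5 held 8 isoforms whose mean share of the gene's TPM moved by at least 20 points with no overlap. The same count was not made over all genes, so whether 5 of 72 is many or few is not known. In Usp45 the coding transcript Usp45-202 held 66.1% and 63.8% in WT and 45.5% and 38.3% in KK. Usp45-203, annotated as a target of nonsense-mediated decay, held 9.19% and 13.7% in WT and 38.6% and 39.7% in KK, from 32.8 and 63.5 estimated counts in WT and 188.5 and 166.1 in KK. Usp45 as a gene did not pass, with 28.1 and 29.6 CPM in WT and 29.2 and 24.6 in KK.

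In Usp10, 2 coding transcripts exchanged shares. Usp10-202 held 45.1% and 54.3% in WT and 16.5% and 33.5% in KK, and Usp10-210 held 53.2% and 42.4% in WT and 83.5% and 66.5% in KK. Ube2h-202 held 88.3% and 86.6% in WT and 60.9% and 69.0% in KK. Of the gene's counts, Ube2h-202 held 98.3% and 97.7% in WT and 92.0% and 95.0% in KK, so few counts lay behind this shift. The shifts in Usp22 and Ube2e2 also rested on few counts. The retained-intron Usp22-204 had 11.1 and 4.18 counts in KK and 0 in WT. Ube2e2-207 had 7.43 and 23.5 counts in WT and 0 in KK. Isoform counts are estimates that divide shared reads.

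**Figure D5:**
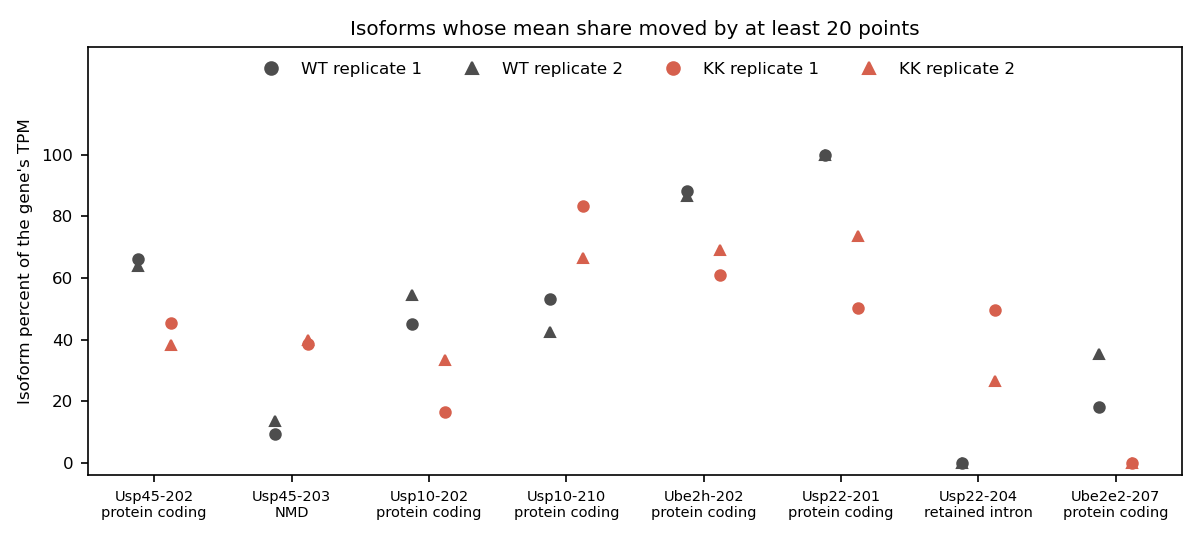
Share of the gene's TPM held by each of the 8 isoforms that moved by at least 20 points, in percent for each library, with circles and triangles for replicates 1 and 2 and the annotated transcript type below. Usp45-203 lies at 9.19% and 13.7% in WT and at 38.6% and 39.7% in KK, and the KK points of Usp10 lie farther apart than those of Usp45.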

How the data were processed

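RNA-seq libraries of 2 WT and 2 KK samples were used, grouped by genotype label. The deposited tables hold, per the file headers, expected counts and TPM of genes and isoforms, lengths, effective lengths and each isoform's percent of its gene's TPM. The authors deposited TPM scaled by effective length, and the percent values were used as deposited. Bowtie and the builds mm10 and GRCm38 are named in the submitters' processing notes, and for the quantifier and the annotation the entry is not given in the sources used here. Names and models came from GENCODE M21 (55104 of 55364 identifiers found). Per the labels' protocols, the library kit was NEBNext Ultra, which does not mark strand.

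Expected counts were rounded and tested with edgeR 4.0.16 in R 4.3.3 (TMM factors, default expression filter, quasi-likelihood fit on genotype, Benjamini-Hochberg adjustment over 16571 genes, threshold 0.05), after a check on simulated data. CPM are on the TMM scale, and a standard error is the log2 fold change over the square root of F. Alternatives used DESeq2 1.42.0, limma 3.58.1 on log2 of TPM plus a pseudocount of 1 or 0.1, other scalings and filters, an effective length offset, a replicate block and each library left out. Coding sequences were aligned with Biopython 1.88. Library totals of 17970207 to 19438570 counts set the precision of low genes.

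Members and lists were chosen with earlier results of these data known, and the 10 CPM split after seeing the data. Per-library values are given for called members of at least 1 CPM changed 1.5-fold without overlap (up to 12 each way), X- or Y-linked members, the 6 most abundant of each family by TPM, 7 chromatin and germ cell role groups, isoform shifts, and up to 2 genes each way per other list with at least 5 CPM. Genes given values beyond this rule, such as Ube2k, Usp32, Usp50 and Rad18, were chosen after their values were seen. 1 member is counted but its values are not reported here.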

Additional observations from a re-analysis of the deposited data

How the results depend on the processing

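All genes called numbered 7237, and 4580 with the effective length offset, 3758 with limma on log2(TPM + 0.1) and 3826 on log2(TPM + 1). E2 members called lower numbered 11, and 6 with the effective length offset, 6 with library size scaling and 4 with either limma fit. USP members called higher numbered 12, and 7 with limma on log2(TPM + 0.1). USP members called lower numbered 16, and 9 with the effective length offset and 5 with either limma fit. Signs turned with the effective length offset, limma on log2(TPM + 0.1) and limma on log2(TPM + 1), in that order: log2 fold change of Ube2b 0.0333, 0.0307 and 0.0306, log2 fold change of Ube2n 0.0196, 0.0166 and 0.0165, log2 fold change of Usp30 0.243, 0.242 and 0.236, and log2 fold change of Usp53 0.771, 0.531 and 0.504. The cause was not tested. Members with a shift in isoform use numbered 5, and 8 at 15 points, 1 at 30 points and 3 with at least 100 counts per gene. By share of counts rather than TPM, the shifts of Ube2h and Usp22 lay below 20 points, while Usp37-201 and Usp35-201 passed. Usp37-201 held 62.7% and 57.7% of counts in WT and 40.8% and 38.0% in KK. Usp35-201 held 79.6% and 17.0% in WT and 80.9% and 83.5% in KK. Of 44 called members, leaving out 1 library lost between 5 and 8 calls, and 11 uncalled members passed under some alternative. Same-numbered libraries deviated together with a correlation of -0.0575 over genes, so the numbers were not taken as pairs. With a replicate block 7309 genes were called and 1 called member, Ube2w, was lost. Precision is limited by 2 libraries a genotype and, below about 1 CPM, by counts.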
